A study of Saccharomyces cerevisiae with 12 samples.

Results

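Overexpression of FLO8 was set directly against overexpression of MSS11 in Saccharomyces cerevisiae Σ1278b, a laboratory strain that adheres to and invades agar. The 2 arrays compared, of 12 in the series, carried RNA of one culture each, and every difference below is the log2 signal of the FLO8 overexpression array minus that of the MSS11 overexpression array. All 5498 probe sets with exactly 1 S. cerevisiae gene in the platform annotation were compared, which covered 5449 genes. With 1 array a side the comparison had no replicates of its own, so genes are described, without a test, by the size of their difference and by how it stood to the spread between replicate cultures of other groups.

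The study followed the transcription factor Mss11 and its targets in the cell wall. The FLO8 and MSS11 cultures were a MATα Σ1278b strain (his3Δ::hisG, trp1Δ::hisG, leu2Δ::hisG and ura3-52) that held a multicopy plasmid with FLO8 or with MSS11. Cultures of the same strain with an empty vector served as wild type, 1 on the same set of arrays and 3 on a separate set, and 1 culture had MSS11 replaced with LEU2 and held an empty vector. A further 3 cultures held a multicopy plasmid with FLO11 driven by the strong constitutive PGK1 promoter, and 2 cultures of BY4742, a MATα strain of the S288c background, held MSS11 on a multicopy plasmid or the empty vector. All were grown at 30 °C in 5 ml of synthetic medium with 2% glucose. Both genes under comparison kept their chromosomal copies, and a multicopy plasmid sets no fixed dose, so the cultures differ in the plasmid-borne gene and in the amount of each transcript. The study's methods give 3 cultures per strain, but its text describes no array of FLO8 overexpression. The FLO8 and MSS11 arrays here are labelled replicate 1, and any further replicates were not analysed here.

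Flo8 and Mss11 are transcription factors that work together at the promoters of the FLO genes, where Flo8 is a target of protein kinase A in the Ras and cyclic AMP pathway. Their best-known target is FLO11, which encodes the adhesin needed for invasive and filamentous growth and for the spread of cells as a mat. The other FLO genes encode flocculins, cell wall lectins that bind sugars on neighbouring cells, and most S288c strains do not flocculate because they carry a nonsense allele of FLO8.

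The 12 arrays had closely similar distributions. The median log2 signal of the S. cerevisiae probe sets lay between 10.72 and 10.84. The background level of an array was taken as the 95th percentile of its probe sets for Schizosaccharomyces pombe, a yeast that was not in the cultures, and was 4.87 on the FLO8 array and 4.83 on the MSS11 array. Between replicate cultures of the separate wild type and of FLO11 overexpression (6 pairs), 0 to 7 probe sets differed at least 2-fold. The alpha-cell genes matched the MATα mating type given above. MF(ALPHA)1, which encodes the alpha-factor pheromone, was at 14.63 on the FLO8 array and 14.60 on the MSS11 array. The study's list of strains gives a Σ1278b parent with the same markers as MATa, which differs from the mating type given here.

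The plasmid-borne genes stood out on their own arrays. FLO8 had a log2 signal of 14.65 on the FLO8 array and 10.18 on the MSS11 array, a difference of 4.47 or 22.1-fold. It was 10.34 in the wild type of the same set and 10.38 in the mss11 deletion, so the MSS11 array lay near both. MSS11 had 8.44 on the FLO8 array and 12.29 on the MSS11 array, a difference of -3.85 or 14.4-fold. It was 8.22 in the wild type and 6.87 in the library labelled mss11 deletion, which is lower but above the background level of 4.83 on that array. The gap between 2 replicate cultures reached at most 0.15 for FLO8 and 0.39 for MSS11. Those replicate cultures held neither plasmid, so these gaps do not give the spread of the plasmid-borne genes. URA3, the marker of the vector named in the methods, was 14.82 on the FLO8 array and 14.32 on the MSS11 array, a difference of 0.50. The largest replicate gap was 0.27, but it comes from the separate set, where URA3 averaged 8.64 in the wild type. That gap therefore does not give the spread of URA3 at the signals of these arrays. The part of URA3 in the differences below was not tested. LEU2, which the strain label gives as deleted, was at 12.93 on the FLO8 array and 13.02 on the MSS11 array, a difference of -0.09. The vectors of both sets differed in their marker signals. URA3 was at 14.73 in the wild type of the same set and averaged 8.64 in the wild type of the separate set, and LEU2 was at 13.04 in the wild type of the same set and averaged 14.99 in that of the separate set.

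FLO11 itself was alike on both arrays. Its log2 signal was 14.19 under FLO8 overexpression and 14.27 under MSS11 overexpression, a difference of -0.08 that was smaller than its largest replicate gap of 0.32. Both values lay above the wild type at 11.64 and the mss11 deletion at 8.73. FLO11 was thus high under either plasmid.

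At least 2-fold differences were few and nearly all ran one way. Of the 5498 probe sets, 2 were at least 2-fold higher on the FLO8 array (0.0364%) and 25 were at least 2-fold lower (0.455%), 27 in all (0.491%). The 25 lower probe sets were 24 genes, because PRM7 has 2 probe sets. The genes that were higher were FLO8 and the heat shock gene SSA4. The lower genes were MSS11 and 23 others, led by genes of cell wall proteins. Each of the 27 differences was larger than the largest gap of its own probe set over the 6 replicate pairs, by a factor of 1.35 or more. A looser count took every difference larger than that gap whatever its size, and gave 304 higher (5.53%) and 524 lower (9.53%) probe sets. Centring each array on its median moved that split to 409 higher and 448 lower. No further pair of replicate cultures was there to give a reference for this count, so it cannot be read as a number of changed genes. The count also rests on which cultures set the gap. It was 378 to 478 higher and 624 to 727 lower when 1 replicate was left out, with 470 higher without wild type replicate 1 or FLO11 replicate 2 and 478 without FLO11 replicate 1, and 582 to 670 higher and 865 to 927 lower with the pairs of 1 group alone. Across all probe sets the differences had a median of -0.01 and an SD of 0.20, against SDs of 0.12 to 0.17 within the replicate pairs. Their interquartile range was 0.14, inside the 0.12 to 0.18 of the replicate pairs. The middle of the distribution was thus no wider than between replicate cultures.

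**Figure D1:**
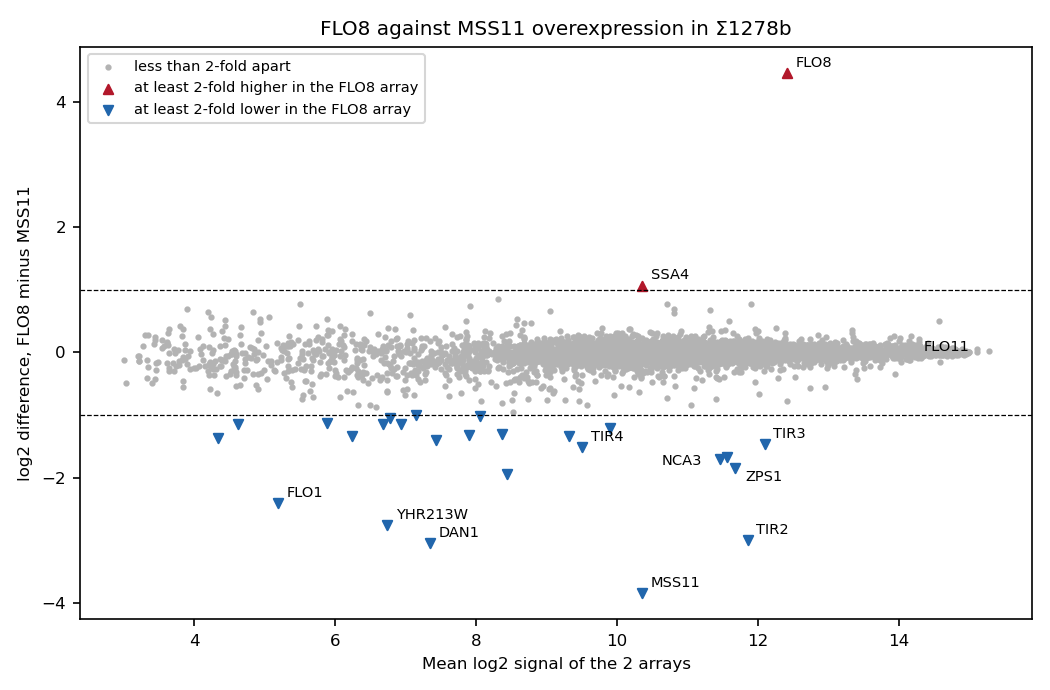
The log2 difference between the FLO8 and MSS11 arrays (vertical axis) is plotted against the mean log2 signal of both (horizontal axis), 1 point per probe set, with dashed lines at 2-fold. FLO8 and SSA4 lie above the upper line, 25 probe sets lie below the lower one, and FLO11 lies near 0 at the right.

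The flocculin genes other than FLO11 were lower under FLO8 overexpression. FLO1, the main flocculin gene, was at 3.98 on the FLO8 array, which is below background, and at 6.40 on the MSS11 array. It was at least 2.88-fold lower on the FLO8 array when that array is set at its background level, and the measured difference was -2.41. The wild type at 3.96 and the mss11 deletion at 3.92 were also below background, so of these 4 Σ1278b arrays FLO1 was above background only on the MSS11 array. FLO9 was at 8.66 on the FLO8 array and 9.99 on the MSS11 array, a difference of -1.34, and the wild type was at 8.70. FLO10 was at 8.13 on the FLO8 array and 8.89 on the MSS11 array. Its difference of -0.76 was short of 2-fold but larger than the largest replicate gap of 0.38. The FLO9 probe set is one whose probes are shared between genes and FLO5 has no probe set of its own, so the transcripts of FLO1, FLO5 and FLO9 cannot be fully told apart on this array.

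Some fragments of flocculin genes were also lower. YHR213W, a pseudogene related to FLO1, was at 5.36 on the FLO8 array and 8.12 on the MSS11 array, a difference of -2.76 or 6.75-fold, with the wild type at 5.04. Its neighbour YHR213W-A was at 7.73 on the FLO8 array and 9.02 on the MSS11 array, a difference of -1.30, with the wild type at 7.78. The largest replicate gap was 0.89 for YHR213W and 0.19 for YHR213W-A. The study gives YAR062W the same value as YHR213W, so that probe set may not measure YHR213W alone. Among the other fragments, YAR064W had a difference of -0.87, YAL065C -0.18, YHR212W-A -0.11 and YAL064W-B -0.08. In counts, 2 of 4 flocculin genes measured and 2 of 6 fragments were at least 2-fold lower (0.455% of all probe sets) and 0 were higher, where FLO1 and FLO9 may not be separate measurements. The study picked several of these genes on these arrays, so the counts are not independent evidence. The median difference was -1.05 over the flocculins and -0.52 over the fragments, beside -0.01 over all genes.

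The largest differences after the plasmid-borne genes were in the TIR and DAN mannoproteins. These are small serine- and alanine-rich proteins of the cell wall, best known for their induction by cold shock and by lack of oxygen. DAN1 was at 5.83 on the FLO8 array and 8.88 on the MSS11 array, a difference of -3.05 or 8.29-fold. It was close to background in the wild type at 4.92 and in the mss11 deletion at 5.02. TIR2 was at 10.37 on the FLO8 array and 13.36 on the MSS11 array, a difference of -2.996 or 7.98-fold, and its replicate cultures were never more than 0.21 apart. The wild type was at 8.81, so the FLO8 array also lay above the wild type, by 1.56, and the MSS11 array by 4.55.

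TIR3 and TIR4 had the same order of arrays with smaller steps. TIR3 was at 11.37 on the FLO8 array and 12.83 on the MSS11 array, a difference of -1.46. The wild type was at 9.49 and the mss11 deletion at 8.13, so TIR3 was high under both plasmids and lower in the mss11 deletion. TIR4 was at 8.75 on the FLO8 array and 10.26 on the MSS11 array, a difference of -1.51, with 7.97 in the wild type and a largest replicate gap of 0.18. TIR1 was at 9.07 on the FLO8 array and 9.84 on the MSS11 array, a difference of -0.77 that was short of 2-fold and beyond the largest replicate gap of 0.25. TIP1 and DAN4 were alike on both arrays. TIP1 had 14.14 on the FLO8 array and 14.12 on the MSS11 array, and DAN4 had 8.79 on the FLO8 array and 8.89 on the MSS11 array. Over the list, 4 of 7 genes measured were at least 2-fold lower (0.455% of all probe sets), 0 were higher and the median difference was -1.46. This list too holds genes that the study picked on these arrays. The related seripauperins, a large family of small mannoproteins with similar sequences, differed less. Of 13 genes 0 passed 2-fold in either direction (0.491% of all probe sets did), and the median was -0.19.

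**Figure D2:**
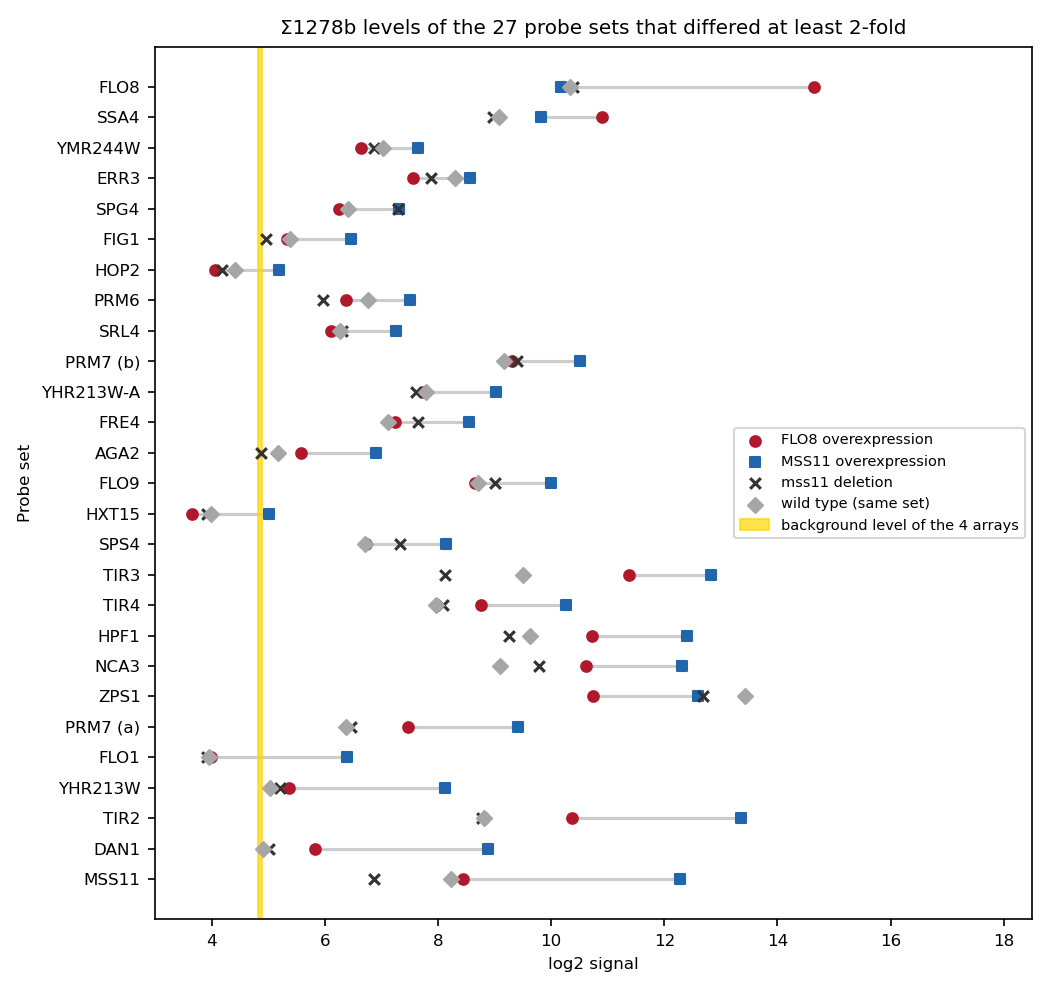
Log2 signals (horizontal axis) of the 27 probe sets that differed at least 2-fold (vertical axis) are shown for the FLO8, MSS11, mss11 deletion and wild type arrays of one set, with the background levels of those arrays as a vertical band. The FLO8 array lies on the wild type for FLO9 and YHR213W-A, between the wild type and the MSS11 array for TIR2 and TIR3, and below both for ZPS1.

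Several further genes of the cell surface were lower under FLO8 overexpression. NCA3, a member of the SUN family of cell wall proteins, was at 10.61 on the FLO8 array and 12.31 on the MSS11 array, a difference of -1.70 or 3.25-fold. The other SUN genes did not share this, with differences of -0.15 for UTH1, -0.13 for SIM1 and 0.21 for SUN4. HPF1, which encodes a heavily mannosylated wall protein, was at 10.73 on the FLO8 array and 12.40 on the MSS11 array, a difference of -1.67. The wild type of the same set was at 9.63, while the 3 wild type cultures of the separate set averaged 11.68 ± 0.20 (SD, n = 3), so the wild type itself differed between sets by more than the replicate gap of 0.40. HPF1 was the 1 gene of 19 structural wall genes that passed 2-fold, where 0.455% of all probe sets were at least 2-fold lower. The median over that list was -0.04. YPS3, a protease anchored in the plasma membrane, had a difference of -0.76 and PIR3, a covalently bound wall protein, one of -0.65. The PIR3 difference was smaller than its largest replicate gap of 1.55.

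ZPS1 was the exception in its relation to the wild type. It encodes a surface protein induced when zinc is scarce, and was at 10.75 on the FLO8 array and 12.60 on the MSS11 array, a difference of -1.85 or 3.60-fold. The wild type was at 13.42 and the mss11 deletion at 12.68, so both overexpression arrays lay below the wild type and the FLO8 array was the lower. Of 16 zinc-regulated genes ZPS1 alone passed 2-fold, where 0.455% of all probe sets were at least 2-fold lower, and the median was -0.06. ZRT1, the high-affinity zinc transporter gene, had a difference of -0.16 and ZAP1, the zinc-responsive activator gene, one of -0.24.

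Mating genes were lower on the FLO8 array as a group, mostly by less than 2-fold. Of 21 pheromone-induced genes, 18 had a difference below 0, and 11 of the 21 were lower beyond every replicate pair. Of all 5449 genes, 2967 were below 0 and 520 were lower beyond every pair. The list median was -0.38, and it reached 0.25 in size between replicate cultures. The 3 that passed 2-fold were PRM7, PRM6 and FIG1. PRM6 and FIG1 fell short of 2-fold when the arrays of the set were quantile normalized again, and FIG1 also when 16 was added to each signal. PRM7, a pheromone-regulated membrane protein gene, was at 7.47 on the FLO8 array and 9.42 on the MSS11 array by one probe set, and at 9.30 on the FLO8 array and 10.51 on the MSS11 array by the other. Its differences were -1.94 and -1.21, so both probe sets gave the same direction. PRM6, a potassium transporter gene, was at 6.37 on the FLO8 array and 7.51 on the MSS11 array, with a largest replicate gap of 0.81. FIG1, needed for calcium uptake during mating, was at 5.32 on the FLO8 array and 6.46 on the MSS11 array, with a gap of 0.37. AGA1, the anchor of the mating agglutinin, was at 10.64 on the FLO8 array and 11.47 on the MSS11 array, and PRM1, which acts in membrane fusion, at 7.96 on the FLO8 array and 8.77 on the MSS11 array. FAR1 and SST2, also pheromone-induced, had differences of 0.12 and 0.04.

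Transcripts typical of a cells were low in this alpha strain, and some differed in the same direction. AGA2, the adhesion subunit of the a-cell agglutinin, was at 5.57 on the FLO8 array and 6.90 on the MSS11 array, a difference of -1.33 with a largest replicate gap of 0.64. MFA2, an a-factor gene, was at 6.07 on the FLO8 array and 6.90 on the MSS11 array, and STE2, the receptor for alpha-factor, was at 8.01 on the FLO8 array and 8.55 on the MSS11 array. In all, 7 of 8 a-specific genes had a difference below 0 (2967 of all 5449 genes), with a median of -0.38. STE6 and ASG7 each had a difference of -0.05 and AXL1 one of 0.08. All 8 genes were above background on both arrays. Their summed signal was 11.13 on the FLO8 array and 11.28 on the MSS11 array on the log2 scale, inside the 11.08 to 11.32 of the other Σ1278b arrays. Of the 5 alpha-specific genes, 4 were lower on the FLO8 array (2967 of all 5449 genes). Their median was -0.23, and MF(ALPHA)2 had the largest difference at -0.55. The 5 haploid genes, HO and GPA1 among them, had a median of 0.02. The part of mating-type transcripts in the mating-gene differences was not tested.

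The remaining lower genes had no common list. SPS4, expressed during sporulation, was at 6.73 on the FLO8 array and 8.13 on the MSS11 array, and FRE4, a ferric reductase gene, was at 7.24 on the FLO8 array and 8.56 on the MSS11 array. Both FLO8 values were within the largest replicate gap of the wild type, at 6.72 for SPS4 and 7.12 for FRE4. SRL4, SPG4, ERR3 and YMR244W had differences of -1.15, -1.05, -1.01 and -1.002. SPG4 is a gene of stationary phase survival and ERR3 encodes a protein related to enolase. HXT15, a hexose transporter gene, and HOP2, a meiotic recombination gene, were below background on the FLO8 array at 3.65 and 4.05 and barely above it on the MSS11 array at 5.02 and 5.19, and their largest replicate gaps were 0.90 and 0.84. With the FLO8 array set at its background level their folds were at least 1.11 and 1.25. ERR3 and YMR244W fell short of 2-fold when the arrays were centred on their medians. The HXT15 and ERR3 probe sets are, like that of FLO9, ones whose probes are shared between genes.

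**Figure D3:**
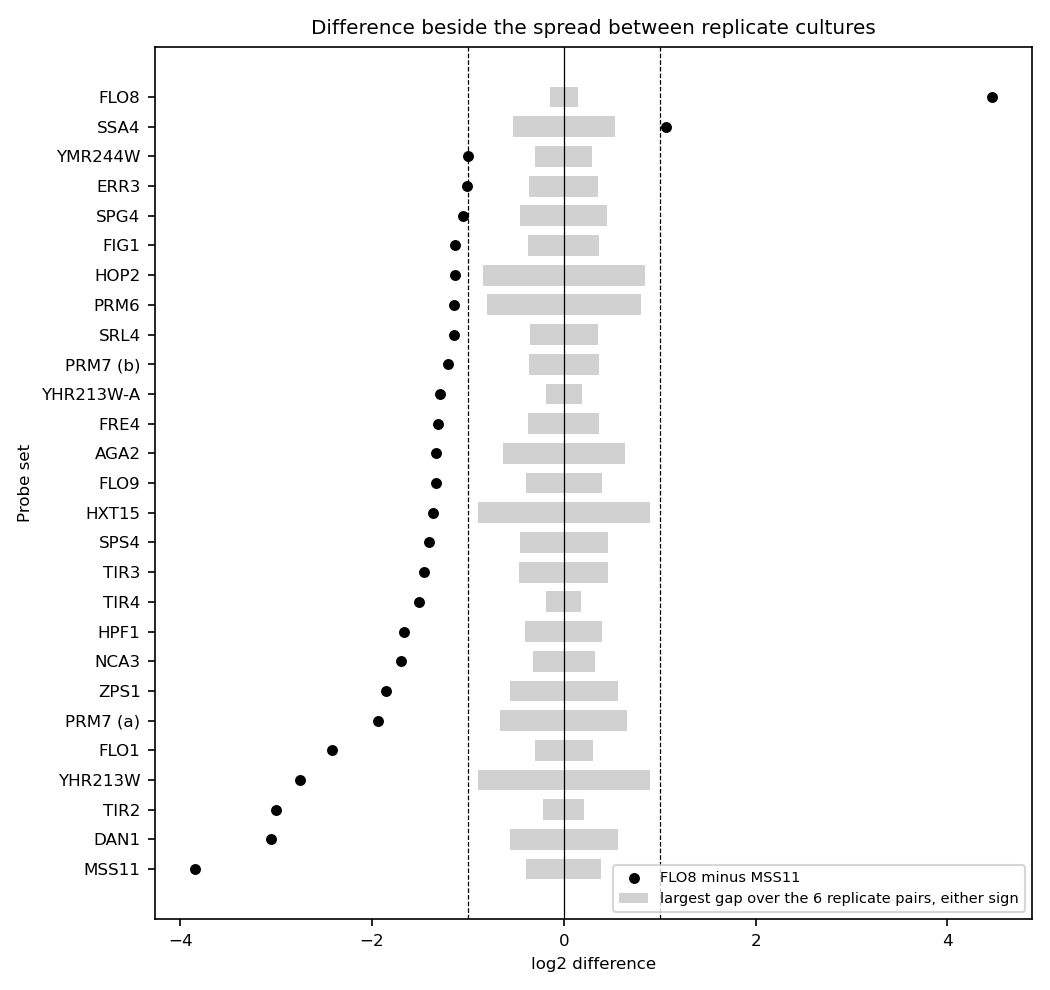
For the 27 probe sets (vertical axis), points give the log2 difference between the FLO8 and MSS11 arrays (horizontal axis) and grey bars the largest gap, drawn in either sign, between 2 replicate cultures over 6 pairs of the separate wild type and FLO11 overexpression groups. Every point lies outside its bar, with TIR2 and YHR213W-A far outside and PRM6 and HOP2 close to the bar.

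SSA4 was the only gene besides FLO8 that was at least 2-fold higher on the FLO8 array. SSA4, a stress-induced Hsp70 chaperone, was at 10.90 on the FLO8 array and 9.83 on the MSS11 array, a difference of 1.07 or 2.10-fold. The wild type was at 9.09 and the mss11 deletion at 8.97, so both overexpression arrays lay above the wild type. HSP30, a stress protein of the plasma membrane, was at 8.73 on the FLO8 array and 7.88 on the MSS11 array, and BTN2, which sorts misfolded proteins, was at 11.13 on the FLO8 array and 10.49 on the MSS11 array. The HSP30 difference of 0.85 was larger than its largest replicate gap of 0.68. HSP30 was at 8.30 in the wild type of the same set, but at 11.52 in the mss11 deletion. It averaged 11.01 in the wild type of the separate set, so it varied between groups and sets by far more than between these arrays. Of 22 chaperone genes 16 were higher (2481 of all 5449 genes) and 6 lower. SSA4 alone passed 2-fold, where 0.0364% of all probe sets were at least 2-fold higher. The list median was 0.07, less than the 0.19 that it reached in size between replicate cultures. The cytosolic Hsp70 gene SSA1 and the Hsp90 gene HSP82 had differences of 0.26 and 0.27, and SSA3, another Hsp70 gene, one of -0.13. The summed chaperone signal was 17.38 on the FLO8 array and 17.32 on the MSS11 array, where the 6 replicate cultures ranged from 17.41 to 17.54 (log2).

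The aquaporin gene AQY2 and the adjacent reading frame YLL053C, which is also aquaporin-like, were higher by 0.78 and 0.77. AQY2 was at 11.10 on the FLO8 array and 10.32 on the MSS11 array, around the wild type at 10.78, while the mss11 deletion was at 12.46. AQY1 and FPS1, the other water and glycerol channel genes measured, had differences of -0.13 and 0.01.

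In all, 12 probe sets were 1.5- to 2-fold higher on the FLO8 array (0.218%) and 40 were 1.5- to 2-fold lower (0.728%). The lower ones included DAL80, which encodes a repressor of nitrogen catabolic genes, at 8.05 on the FLO8 array and 9.003 on the MSS11 array. They also included the sterol uptake transporter gene PDR11, with a difference of -0.84, the low-glucose hexose transporter gene HXT4, with -0.78, and the pyruvate decarboxylase gene PDC5, with -0.74. Just inside the 2-fold limit stood YMR244W at -1.002, and just outside it DAL80 at -0.96.

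Genes under nitrogen catabolite repression, which serve the use of poor nitrogen sources, were slightly lower on the FLO8 array. Of 20 genes measured 18 had a difference below 0 (2967 of all 5449 genes), 11 were lower beyond every replicate pair (520 of all), and 0 passed 2-fold. The list median was -0.24, while the list median between 2 replicate cultures was never larger than 0.08 in size. DAL5, the allantoate permease gene, was at 9.47 on the FLO8 array and 9.92 on the MSS11 array. MEP2, the ammonium permease gene that also acts in filamentous growth, was at 12.34 on the FLO8 array and 12.72 on the MSS11 array, with a largest replicate gap of 0.06. GAP1, the general amino acid permease gene, had a difference of -0.22.

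Lysine synthesis genes were slightly higher on the FLO8 array. Of 10 genes 9 had a difference above 0 (2481 of all 5449 genes), 6 were higher beyond every replicate pair (300 of all), 0 passed 2-fold and the median was 0.14, against at most 0.07 in size between replicates. LYS9, which encodes saccharopine dehydrogenase, was at 13.00 on the FLO8 array and 12.72 on the MSS11 array. Both lay below the wild type at 14.48 and the mss11 deletion at 14.46. The 6 biotin genes had a median of -0.35, but the list median reached 0.55 in size between replicate cultures.

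Among 25 genes that regulate filamentous growth, the plasmid-borne pair made up both 2-fold differences. With that pair, 3 were higher (300 of all 5449 genes) and 5 lower (520 of all) beyond every replicate pair. NRG1, a repressor gene, was at 10.19 on the FLO8 array and 10.52 on the MSS11 array, a difference of -0.34 beyond its largest replicate gap of 0.13. MGA1, a relative of heat shock factor, was at 9.22 on the FLO8 array and 9.59 on the MSS11 array, within its largest replicate gap of 0.56. TEC1 and STE12, the activators at the end of the filamentation kinase cascade, had differences of -0.21 and -0.14, PHD1 and SOK2 -0.11 and -0.02, and the repressor gene SFL1 0.14. Of 20 genes of the protein kinase A and filamentation signalling pathways 0 passed 2-fold and the median was -0.06. Among the hexose transporters, HXT15 passed 2-fold (0.455% of all probe sets were at least 2-fold lower), but only through the MSS11 array. It was below background on the FLO8 array, which bounds its fold at 1.11 or more. The median of the 17 hexose transporter genes was -0.09. The 128 ribosomal protein genes, with a median of 0.02, the 22 ergosterol genes, with 0.01, and the 31 respiratory chain genes, with -0.05, had 0 genes past 2-fold. Of all probe sets 0.491% passed 2-fold in either direction.

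**Figure D4:**
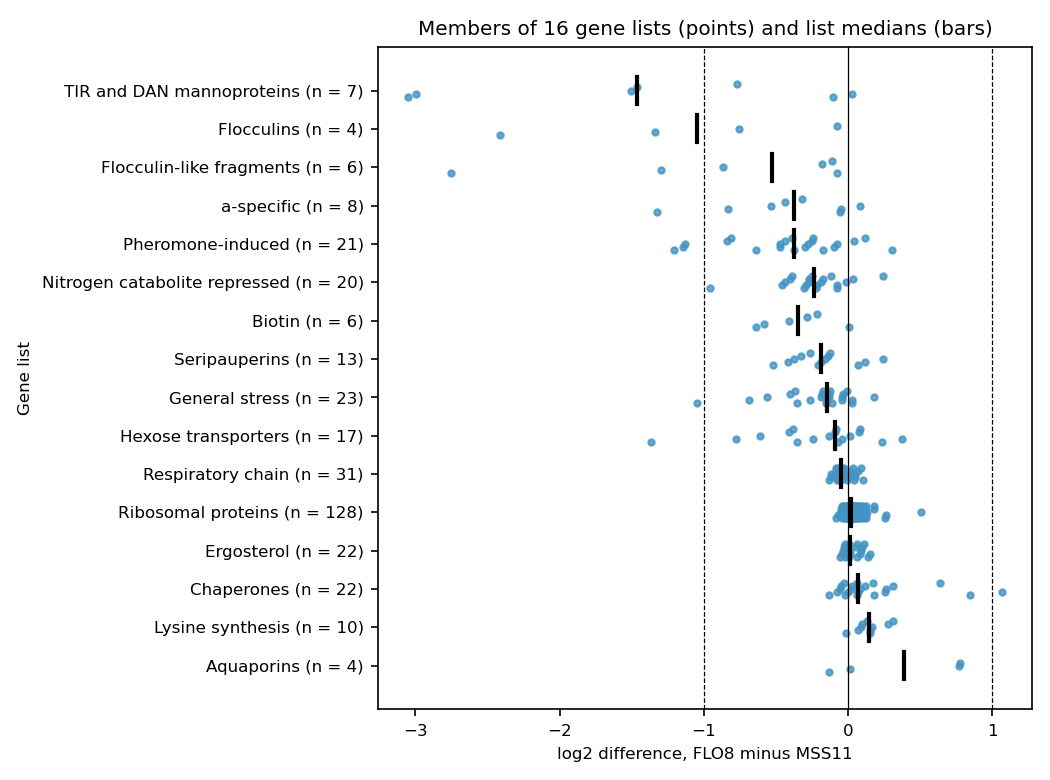
Log2 differences between the FLO8 and MSS11 arrays (horizontal axis) are shown for the measured members of 16 gene lists (vertical axis), with points for genes, black bars for list medians and dashed lines at 2-fold. The TIR and DAN mannoproteins and the flocculins have the lowest medians, at -1.46 and -1.05, and the ribosomal proteins cluster at 0.02.

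Set beside the wild type of the same set, many of the lower probe sets were near the wild type under FLO8 overexpression and above it under MSS11 overexpression. The 2 comparisons use the same wild type array, so their values are given side by side. For 15 of the 25 probe sets the FLO8 array lay within the largest replicate gap of the wild type, and for 3 the MSS11 array did. FLO1, HXT15 and HOP2 are among the 15 but were below background on the FLO8 array and in the wild type. Their closeness to the wild type therefore carries no information. On the FLO8 array 5 of the 25 were at least 2-fold above the wild type, namely HPF1, NCA3, PRM7, TIR2 and TIR3, and ZPS1 was at least 2-fold below it, where 0.473% and 0.346% of all probe sets lay above and below. On the MSS11 array 18 of the 25, MSS11 itself among them, were at least 2-fold above the wild type and 0 below, where 0.946% and 0.273% of all probe sets did so. Both arrays lay above the wild type for 14 probe sets, the MSS11 array above and the FLO8 array below it for 10, and both below it for ZPS1. The 25 were chosen as higher on the MSS11 array. That order, the 18 of 25 above the wild type and the contrast of 15 with 3 are therefore not results in themselves. NCA3 was an example of a gene above the wild type on both, with 10.61 on the FLO8 array and 12.31 on the MSS11 array, against 9.10 in the wild type.

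FLO11 was not the only gene that was alike on both arrays and apart from the wild type. HXT7, a high-affinity hexose transporter gene, was at 13.11 on the FLO8 array and 13.09 on the MSS11 array, against 12.09 in the wild type. NCE103, the carbonic anhydrase gene, was at 13.86 on the FLO8 array and 13.83 on the MSS11 array, against 13.11 in the wild type. ECM34 was at 8.96 on the FLO8 array and 9.25 on the MSS11 array, against 7.47 in the wild type and 6.22 in the mss11 deletion. HMS1, a transcription factor gene of pseudohyphal growth, was apart from the wild type on both arrays but was not alike on them. It was at 9.59 on the FLO8 array and 9.95 on the MSS11 array, against 8.61 in the wild type and 6.43 in the mss11 deletion. Its difference of -0.36 was larger than its largest replicate gap of 0.16. These genes were picked after their values were seen or because the study names them.

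The S288c arrays, which share no array with the comparison, gave a second view of the same genes under MSS11 overexpression in a strain with a defective FLO8 allele. Of the 25 probe sets that were lower on the FLO8 array, 14, MSS11 itself among them, were at least 2-fold higher in S288c with MSS11 than in the S288c wild type, where 1.24% of all probe sets were. These were 56.0% of the 25 and 20.6% of the 68 probe sets higher in S288c. FLO1 was at 12.77 in S288c with MSS11 and 6.88 in the S288c wild type. The former was a far higher signal than in Σ1278b with MSS11. Whether the probes match both strains alike was not tested. DAN1 was at 11.87 in S288c with MSS11 and 8.53 in the S288c wild type, and TIR2 at 14.22 in S288c with MSS11 and 10.54 in the S288c wild type. A pair of mating genes went the other way. AGA2 was at 8.92 in S288c with MSS11 and 10.47 in the S288c wild type, and PRM6 at 8.14 in S288c with MSS11 and 9.29 in the S288c wild type, where 0.437% of all probe sets were at least 2-fold lower. The a-specific genes had far higher signals in S288c than on any Σ1278b array. Their summed log2 signal was 12.36 in S288c with MSS11 and 13.47 in the S288c wild type. The part of the a-specific genes in the AGA2 and PRM6 values was not tested.

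**Figure D5:**
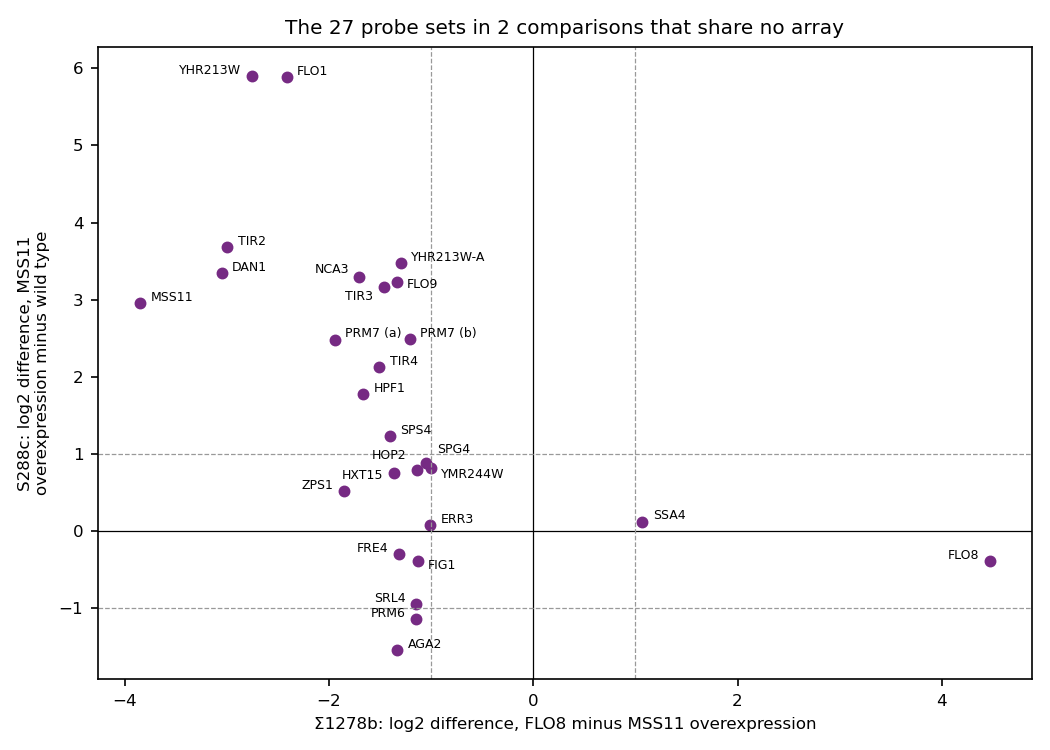
For the 27 probe sets, the log2 difference between the FLO8 and MSS11 arrays of Σ1278b (horizontal axis) is plotted against the log2 difference between MSS11 overexpression and wild type in S288c (vertical axis), with dashed lines at 2-fold; PRM7 (a) and (b) are its 2 probe sets. FLO1, YHR213W, DAN1 and TIR2 lie at the upper left and AGA2 and PRM6 at the lower left.

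On the mss11 deletion array most of these genes were within 2-fold of the wild type. Of the 25 probe sets 2, MSS11 and TIR3, were at least 2-fold lower in the mss11 deletion than in the wild type (0.236% of all probe sets) and 0 were higher (0.4% of all). FLO11 overexpression was also compared with its own wild type, using the means of 3 cultures each. Of the 25, NCA3, SPG4 and SRL4 were at least 2-fold higher (0.6% of all probe sets) and HPF1 at least 2-fold lower (0.109% of all). NCA3 averaged 11.65 ± 0.16 under FLO11 overexpression and 9.97 ± 0.18 in the wild type (SD, n = 3 each). HPF1 averaged 9.66 ± 0.07 under FLO11 overexpression and 11.68 ± 0.20 in the wild type, so its direction was opposite to that of NCA3. TIR2 averaged 9.10 and DAN1 4.94 under FLO11 overexpression, against 9.23 and 5.15 in the wild type, and neither reached 2-fold. SSA4 averaged 10.05 ± 0.30 under FLO11 overexpression and 9.15 ± 0.07 in the wild type, short of 2-fold.

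Some of the genes described lie next to each other in the S. cerevisiae gene order. Among those that differed at least 2-fold the neighbours were TIR4 and TIR2, HPF1 and ZPS1, HOP2 and AGA2, and YHR213W and YHR213W-A. Neighbours did not always keep to one side of the wild type, since HPF1 lay above it and ZPS1 below it on both arrays.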

How the data were processed

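RNA from 12 cultures was hybridized to Affymetrix Yeast Genome 2.0 arrays. The deposited signal intensity, 1 linear value per probe set, had been background corrected and normalized across arrays by the authors with RMA. No RMA version was given in the sources used. The log2 of each intensity was taken. A probe set was called where its log2 values lay 1 or more apart (2-fold) and its brighter array was above the background level of that array. Of 10928 probe sets, 5498 had exactly 1 S. cerevisiae gene in the platform annotation (12 symbols updated), 1747 were taken as S. pombe and 3683 were unlisted. For gene lists the brightest probe set of each of the 47 genes with several was used. FLO5, HXT6 and TRP1 have no probe set of their own. The labels give harvest at early stationary phase and the study's text an exponential phase, which was not settled. Groups came from the labels.

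The 43 lists of genes, a list of the genes the study names, and the members were chosen with earlier results of these data known. Named genes were FLO8, MSS11, FLO11, the study's genes, the 20 largest 2-fold differences each way, up to 5 members of each list and the marker genes, and others are marked or were picked after their values were seen. Lists of flocculins, their fragments and TIR and DAN genes hold genes that the study picked on these arrays. The pooled fit used limma 3.58.1 in R 4.3.3 over all 12 arrays in 8 groups, with Benjamini-Hochberg adjustment. Other steps used Python 3.11.15 and were tested on simulated data. The number of arrays limits the precision.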

Additional observations from a re-analysis of the deposited data

Results flagged for a closer look

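A probe set without a gene in the platform annotation, which no comparison above uses, also differed at least 2-fold. Its log2 signal was 9.85 on the FLO8 array and 11.33 on the MSS11 array, a difference of -1.48 that exceeded its largest replicate gap of 0.64. The mss11 deletion was at 8.64 and the wild type of the same set at 8.86. In S288c it was at 10.97 with MSS11 overexpression and 9.47 in the wild type.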

How the results depend on the processing

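A 1.5-fold limit gave 14 higher and 65 lower probe sets and a 3-fold limit 1 and 9. The limma fit with pooled spread, whose spread comes wholly from other groups in another set and which assumes that the lone arrays vary like them, gave 1 higher and 9 lower at an adjusted p under 0.05, and 68 and 218 at an unadjusted p under 0.05. It did not call 17 of the 27, SSA4, PRM7, PRM6, FIG1, TIR3, FLO9 and ZPS1 among them. Centring, repeated quantile normalization, an added 16 before the log2, other background rules and other choices of probe sets gave 2 higher and 18 to 26 lower, and no called difference changed sign under the first 3 of these. An added 16 dropped SRL4, FIG1, SPG4, HXT15, HOP2, ERR3 and YMR244W, and quantile normalization SRL4, FIG1, SPG4, ERR3, PRM6 and YMR244W. Counts beyond the replicate gaps depended on how many pairs set the gap. Leaving out 1 replicate gave 378 to 478 higher and 624 to 727 lower, the wild type pairs alone 670 and 927, and the FLO11 pairs alone 582 and 865, since fewer pairs give a smaller largest gap. Under quantile normalization the list medians of gluconeogenesis (-0.123 to 0.0157), hypoxic and sulfur genes changed sign, and under centring that of glycolysis.

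No paired analysis was possible because the FLO8 and MSS11 groups share only replicate number 1. Signals near background, such as those of FLO1, HXT15 and HOP2 on the FLO8 array, have no reliable order.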
